A study of Mus musculus with 11 samples.

Results

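The comparison described here sets liver RNA of mice injected with a mimic of the microRNA miR-30c against liver RNA of mice injected with PBS, the buffer used as vehicle. It takes 8 of the 11 libraries of the series, chosen by their titles: 4 labelled mimic and 4 labelled PBS. All 13636 rows of the deposited gene table enter it. The animals were male C57BL/6J mice, a common inbred strain. Feeding with a Western diet, which is rich in fat and sugar, began at 8 weeks of age and had lasted 1 month when the injections began. The injections went on for 6 weeks, and the oligomer doses rose from 2.5 to 5.0 and then 7.5 mg/kg. The remaining 3 libraries came from mice given a scramble oligomer on the same diet and schedule. Every group therefore carried the diet, and the PBS mice received no oligomer, so that a difference between mimic and PBS takes in both the miR-30c sequence and the injection of an oligomer, which this comparison cannot tell apart. Whole liver was used. Nothing in the labels says that each library came from a separate mouse, so the p-values speak only to the spread among libraries.

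MicroRNAs are short RNAs that guide Argonaute proteins to messenger RNAs, mostly through pairing of the seed, the bases near the 5′ end of the microRNA, with the 3′ untranslated region (3′ UTR) of the target. Pairing shortens the life of the target RNA and lowers its translation. The miR-30 family shares 1 seed, and miR-30c is known for repressing Mttp, whose product, the microsomal triglyceride transfer protein, adds lipid to nascent apolipoprotein B in the hepatocyte and so allows lipoproteins to be secreted. The liver is also the main source of acute phase proteins, plasma proteins whose synthesis changes during inflammation, and holds the Kupffer cells, the macrophages resident in its sinusoids.

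Mature miR-30c-5p (RefSeq, GRCm38.p6, chr1:23291714-23291736, plus strand) is shown with 2 relatives because they have the same bases 2 to 8, the seed, set here in capitals. The labels do not give the sequence of the mimic itself.
miR-30c-5p: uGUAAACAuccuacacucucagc
miR-30a-5p: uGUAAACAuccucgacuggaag
miR-30e-5p: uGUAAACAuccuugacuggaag

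The match to this seed in a messenger RNA is TGTTTAC, and a further A gives the 8-base site. Sites of 4 genes that are reported targets of the family, all of them called lower, are shown as 30-base windows of the 3′ UTR. The annotation is GENCODE M21 (GRCm38), and the match is in capitals. Mttp and Elovl5, an elongase of polyunsaturated fatty acids, are lipid genes. Bnip3l encodes a receptor of mitochondrial autophagy and Becn1 a core autophagy protein.
Mttp, chr3:138090966-138090995, minus strand: tgagagcacagTGTTTACAtatttacctgt
Elovl5, chr9:77984302-77984331, plus strand: gttgcggcatcTGTTTACAtttcccttgtc
Bnip3l, chr14:66985507-66985536, minus strand: agctttattccTGTTTACAatttgggatga
Becn1, chr11:101288701-101288730, minus strand: attaaaccacaTGTTTACAataccaaaatc

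The reads behind a library, inferred from the step of its values with 1 step taken as 1 read, ranged from 39705157 to 101380174. Values are scaled CPM, reads relative to a scaled library size as the authors deposited them, and log2 differences are mimic minus PBS on log2(value + 1), a scale that makes changes of weakly expressed genes look smaller. A gene is called where limma gave a Benjamini-Hochberg adjusted p under 0.05 over all rows. The values are not divided by gene length, so levels are compared between libraries and not between genes. By the name given to them, the deposited rows were kept only where 1 CPM was reached in 3 libraries. Genes below 1 in every PBS and scramble library would then have a row only through mimic, which fixes the direction of their difference. Among them are Gpnmb, Chil3, Slfn4, S100a9, Mmp12, Tlr13, Emp1, Ccr1, C5ar1, Cx3cr1, Acta2, Asns, Irak3 and Sox9. Hepatocyte markers were high in every library, with Alb, Ttr, Apoa1 and Trf summing to between 21340 and 29611 in PBS and between 23900 and 28324 in mimic. Libraries differed within both groups before any comparison. Mup genes encode the major urinary proteins, pheromone carriers made by male liver, and their rows held 38.2% to 52.9% of the counted reads in PBS. In the mimic group the share was 34.8% for replicate 2 and 41.3% for replicate 3, but 12.5% for replicate 1 and 11.6% for replicate 4. The second principal component split the mimic group. Its scores were 16.1 and 14.1 for mimic replicates 1 and 4 and -17.0 and -15.7 for mimic replicates 2 and 3. PBS and scramble libraries lay between, from -11.9 to 8.16. PBS replicate 2 lay nearest to the mimic group on the first component, which held 62.0% of the variance, with a score of 5.09 where the other PBS libraries scored 19.7 to 28.0 and the mimic libraries -41.7 to -26.7. Dividing reads by plain library totals, in which the Mup rows weigh heavily, moved the median difference of all rows from 0.00 to 0.51, so that directions below are relative to the bulk of rows as the authors scaled them, and values with library totals are given for called genes and for lists whose direction depends on the scaling. Among genes named below without a call, Alb, Cd5l, Cebpa, Cpt1a, Dgat1, H2-Ab1, Hnf4a, Igf1, Lrat, Mavs and Socs3 were below 0 as scaled by the authors and above 0 with library totals, from 0.08 for Alb to 0.55 for H2-Ab1. Counts of list members without mimic replicates 1 and 4, or without PBS replicate 2, are given where they differ by more than 1.5 times and reach 5.

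Of the 13636 rows, 5059 (37.1%) were called. In the mimic group 2733 (20.0%) were higher and 2326 (17.1%) lower, and for 4317 rows (31.7%) the 4 mimic values and the 4 PBS values did not overlap. With library totals the split was 6882 higher (50.5%) and 120 lower (0.88%), and without mimic replicates 1 and 4 it was 1752 higher and 1142 lower. Differences of at least 2-fold on the log2(value + 1) scale were found for 376 rows that were higher and 136 that were lower. Scramble and PBS libraries differed in 0 rows by limma, with 434 rows at an unadjusted p under 0.05. Among the called genes named below, 18 had adjusted p-values between 0.017 and 0.049 and lost the call when 1 library was left out, with adjusted p-values of up to 0.14. They were Ahsg, Apob, Asns, Cfd, Fasn, Ghr, Herc6, Il6st, Lpin1, Nfil3, Nr1i3, Ntrk2, Plin2, Plin4, Ppara, Rbp4, Reln and Tlr8. The bar plot of called members shows how the gene lists described below stood against the shares over all rows.

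**Figure D1:**
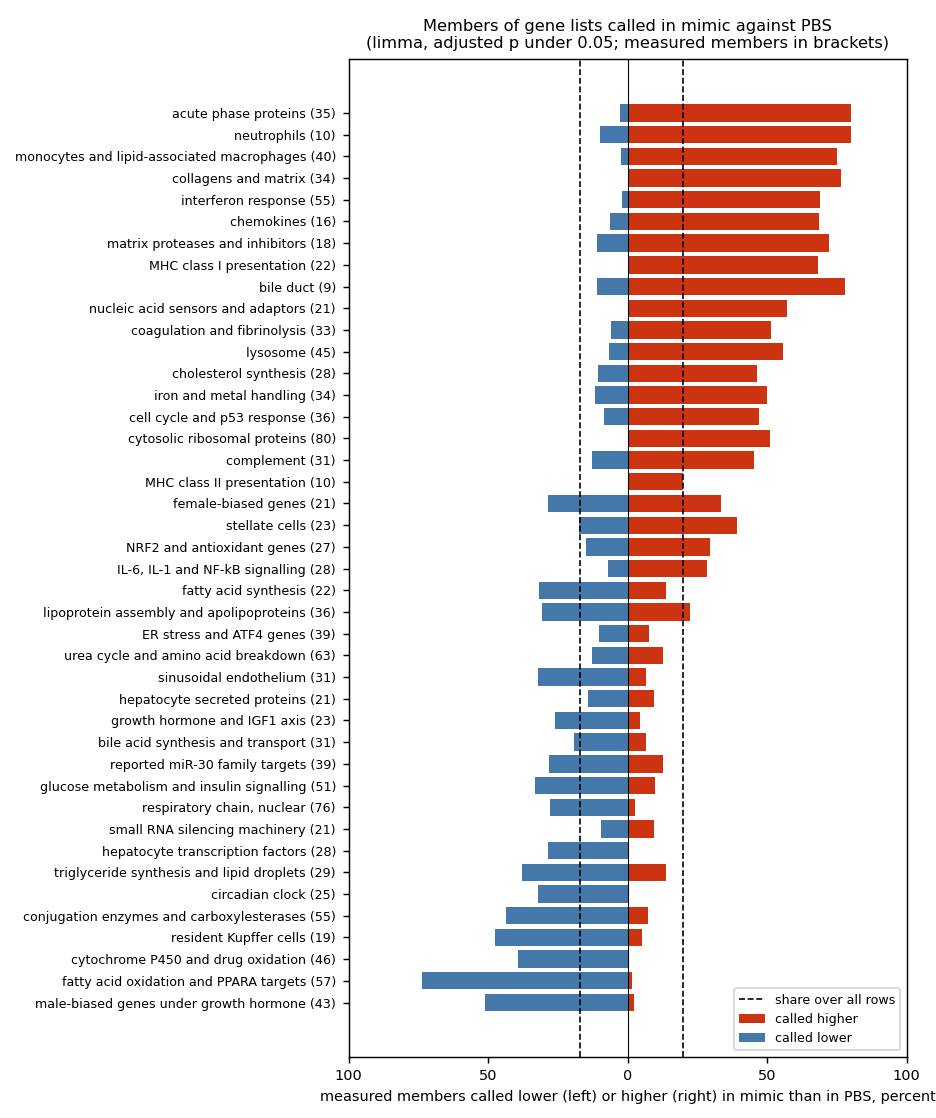
Percentage of the measured members of each gene list (number measured in brackets) called higher (right, red) or lower (left, blue) in 4 mimic than in 4 PBS libraries by limma, as scaled by the authors. Dashed lines mark the shares over all rows, 20.0% higher and 17.1% lower; acute phase, neutrophil, matrix and interferon lists extend far to the right, and fatty acid oxidation and male-biased genes far to the left.

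The target of the mimic was measured first. Mttp (chr3:138089854-138144968, GRCm38) had values of 128, 128, 133 and 143 in PBS replicates 1 to 4 and of 66.4, 59.0, 71.5 and 80.1 in mimic replicates 1 to 4. Every mimic library was below every PBS library. The log2 difference was -0.94 ± 0.09 (SE, n = 4 and 4; adjusted p = 4.4e-05), and a two-sided exact permutation test over the 8 libraries gave p = 0.0286, the smallest that 70 splits allow. With library totals the difference was -0.33 at an adjusted p of 0.23, below the median of all rows of 0.51. Elovl5, whose site is printed above and which was chosen for display after its values were seen, fell from 187, 277, 144 and 159 in PBS to 72.0, 74.1, 100.2 and 105 in mimic replicates 1 to 4, by 1.09 on the log2 scale (adjusted p = 0.004; -0.49 with library totals).

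Of 39 measured genes that have been reported as targets of the miR-30 family, 5 were called higher and 11 lower, with a median of -0.13 against 0.00 over all rows (0.39 against 0.51 with library totals). A 7-base match was present in the longest annotated 3′ UTR of 26 of them, of which 1 was called higher and 9 lower, with a median of -0.27. Of the 13 without a match, 4 were higher and 2 lower, with a median of -0.01. With library totals, 15 of the 39 were higher and 0 lower, and without mimic replicates 1 and 4 the counts were 2 and 7. The calcineurin subunit gene Ppp3ca, which has no match in the 3′ UTR used, fell by 0.60, and Bnip3l by 0.61, each at -0.02 with library totals, while Becn1 fell by 0.30 but stood at 0.28 with library totals. The reported targets that rose included Vim, which encodes the intermediate filament protein vimentin of mesenchymal and myeloid cells, by 1.64, and Ptrf, which encodes a caveolar coat protein, by 0.70. Neither has a match in the 3′ UTR used. Runx2, the 1 target with a match that was called higher, rose by 0.37 (adjusted p = 0.0075) and was named after its values were seen. It has 3 matches, 1 of them an 8-base site. Runx2 was not part of the checks on named genes.

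Over the 11837 rows with a 3′ UTR, the share called lower rose with the number of matches and the share called higher fell. Without a match (9946 rows), 22.4% were called higher and 15.4% lower, with a median difference of 0.03. Among the 1551 rows with 1 match the shares were 13.2% and 25.6% and the median -0.10. The 281 rows with 2 matches had 8.54% and 34.5% and a median of -0.19, and the 59 rows with 3 or more had 5.08% and 44.1% and a median of -0.23. An 8-base site was present in 966 rows, where 10.9% were higher and 31.8% lower. The same order of medians held with library totals, at 0.54, 0.42, 0.32 and 0.27. Length of the 3′ UTR moved with the matches, with a median of 980 bases without and 2377 bases with a match. For 1, 2 and 3 or more matches the medians were 2205, 3407 and 5485 bases. Rows with and without a match were therefore also compared within 3 length classes of equal size, divided at 686 and 1819 bases. Numbers of matches were not compared at equal length, so their order cannot be told apart from length. In the middle class the medians were 0.03 without and -0.10 with a match, in the long class -0.05 and -0.13, and in the short class, with 143 matched rows, 0.08 and 0.02. In the short class 16.8% of matched rows were called higher and 14.7% lower, against 26.5% and 11.9% without a match. In the long class 21.4% of rows without a match were called lower, against 29.3% with one. Between scramble and PBS the medians with and without a match were both 0.00. In each library, the median of rows with a match minus that of rows without, after centring each row, was 0.05, -0.02, 0.06 and 0.11 in PBS replicates 1 to 4 and -0.13, -0.09, -0.06 and -0.10 in mimic replicates 1 to 4. The groups did not overlap in this score, and PBS replicate 2 lay lowest among the PBS libraries. The cumulative curves show the shift to be modest beside the spread of single rows.

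**Figure D2:**
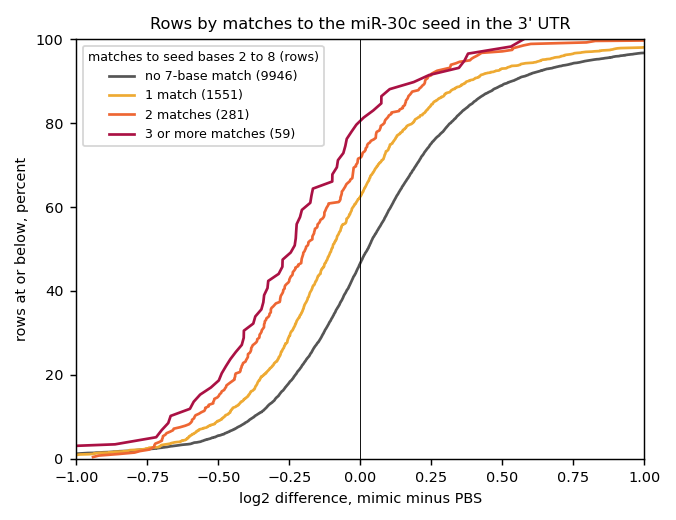
Cumulative percentage of rows (vertical axis) at or below a log2 difference of mimic minus PBS (horizontal axis), for rows with 0, 1, 2 or at least 3 matches to seed bases 2 to 8 in the longest 3′ UTR, with the number of rows in brackets. Curves lie further left with more matches, from a median of 0.03 without a match to -0.23 with 3 or more. Length of the 3′ UTR, which rises with the matches, is not held equal.

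Of 21 genes that act with small RNAs or take up oligomers, 2 were higher and 2 lower. As scaled by the authors, both shares were below those over all rows, which were 20.0% higher and 17.1% lower. The 2 lower were Ago2, the slicing Argonaute, at -0.67 (-0.19 with library totals), and Tnrc6b, a GW182 scaffold protein, at -0.56 (0.01). The 2 higher, Stab1 at 0.53 and Scarb1 at 0.49, are scavenger receptors listed for the uptake of oligomers. Without PBS replicate 2, 2 were higher and 7 lower, and with library totals 7 and 0.

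Acute phase genes had the biggest differences of the table. Of 35 measured, 28 were called higher and 1 lower, with a median of 1.69 (2.23 with library totals), and for 28 the groups did not overlap. The serum amyloid A genes, which encode lipoprotein-bound acute phase proteins, led. Saa1 (chr7:46740497-46742980) was 27.5, 116, 33.7 and 26.3 in PBS replicates 1 to 4 and 7489, 3008, 3626 and 6231 in mimic replicates 1 to 4. The 4 mimic values lay far above all PBS values, among which replicate 2 was the highest. The log2 difference was 6.81 ± 0.43 (adjusted p = 3.5e-06). Saa2 had a difference of 8.33 and Saa3, the form also made outside hepatocytes, of 7.46; Saa1 and Saa2 are near-identical copies between which reads can be split. Lcn2 (chr2:32384633-32388252), the gene of the siderophore-binding lipocalin 2, went from 2.04, 6.05, 2.73 and 1.76 to 2287, 727, 689.7 and 1552, a difference of 8.23 ± 0.39 (adjusted p = 3.8e-07). Mimic replicates 1 and 4 were the highest in Saa1 and Lcn2.

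The orosomucoids and carrier proteins followed. Orm2 (chr4:63362449-63365878), an orosomucoid or acid glycoprotein gene, was 8.97, 11.6, 9.32 and 8.6 in PBS and 1345, 261, 453 and 785 in mimic, a difference of 5.82 ± 0.38, and Orm1 had a difference of 3.37. Apcs, the gene of serum amyloid P, a pentraxin that is an acute phase protein of mice, was 14.5, 11.1, 15.5 and 12 in PBS and 361, 148, 149.7 and 352 in mimic (difference 4.03). The haem carrier gene Hpx was 1134, 1332, 1044 and 896 and 8913, 5194, 5214 and 8020.5 (difference 2.60), with no overlap. Haptoglobin (Hp) and the metallothioneins Mt1 and Mt2, which bind zinc, rose by 2.34, 1.87 and 2.03. Not every member followed, and the next genes were named after their values were seen. Crp, the other short pentraxin, was 140.0, 121, 123 and 142 in PBS and 166, 121, 135 and 165 in mimic (adjusted p = 0.36), and Saa4, the constitutive serum amyloid, differed by 0.46 (adjusted p = 0.21). The 1 member called lower was Vnn1, a pantetheinase that is also a target of the fatty acid receptor PPARA, at -1.53 (-0.94 with library totals). Without mimic replicates 1 and 4, 24 members were called higher and 1 lower.

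**Figure D3:**
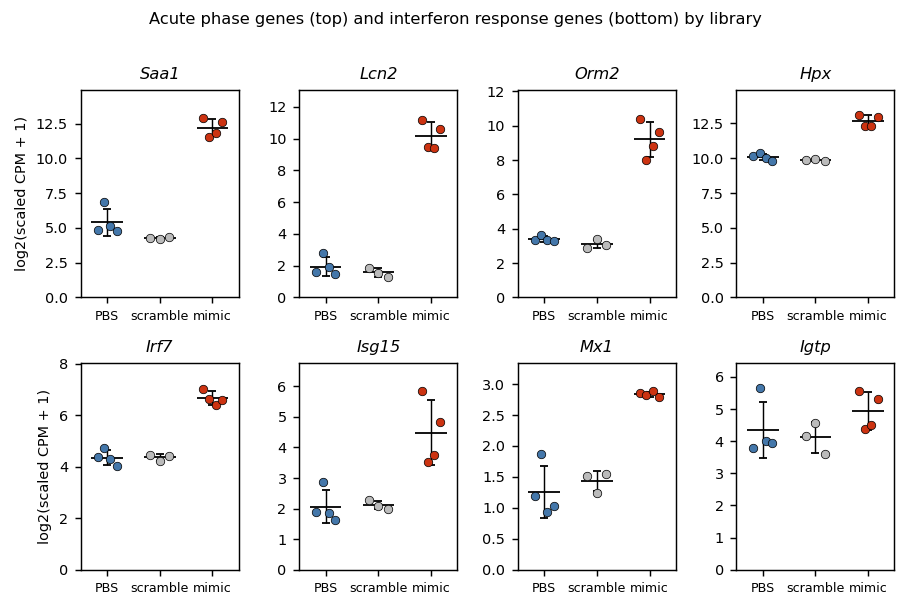
log2(scaled CPM + 1) by library for 4 acute phase genes (top) and 4 interferon response genes (bottom) in 4 PBS, 3 scramble and 4 mimic libraries; each panel has its own vertical axis from 0, horizontal bars are group means and whiskers the SD. The acute phase genes, Irf7 and Mx1 separate mimic from both other groups, while PBS replicate 2 lies above the mimic range for Igtp.

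Genes of the cytokine pathways above the acute phase response were called in part. Of 28 genes of interleukin 6, interleukin 1 and NF-kappaB signalling, 8 were higher and 2 lower, with a median of 0.06. The share called was 35.7%, close to the 37.1% over all rows. Without mimic replicates 1 and 4, 3 were higher and 1 lower, and with library totals 16 and 0. Irak3, a brake on interleukin 1 and Toll-like receptor signalling, rose by 1.04, and Il10rb, a receptor chain shared by interleukin 10 and interleukin 22, by 0.78. Il6st, the shared chain gp130 of the interleukin 6 receptors, fell by 0.30 but stood at 0.29 with library totals. Transcription factor genes were not called: Stat3 had a difference of 0.25 (adjusted p = 0.12), Cebpb of 0.03 (adjusted p = 0.79) and the feedback inhibitor Socs3 of -0.08 (adjusted p = 0.77).

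The promoters of the acute phase genes can be set beside these values. In windows from 250 bases before to 50 after the start (RefSeq, GRCm38.p6), the C/EBP motif TTGCNNAA, searched on both strands, was found in 14 of 27 acute phase promoters (51.9%) and in 10.6% of the 9449 rows with such a window. A STAT motif, TTCNNNGAA, was found in 8 of the 27 (29.6%, against 8.49%), and an NF-kappaB motif (GGGA, any base, TTTCC) in 0 of the 27 (against 0.53%). Matches describe letters only; the C/EBP motif was also found in 10 of 17 promoters of other secreted proteins of hepatocytes (58.8%). Promoters of Saa1 and Saa3, whose RNAs rose most together with Saa2 and Lcn2, are shown 5′ to 3′ on the minus strand with the C/EBP match in capitals.
Saa1 promoter, chr7:46742931-46743230: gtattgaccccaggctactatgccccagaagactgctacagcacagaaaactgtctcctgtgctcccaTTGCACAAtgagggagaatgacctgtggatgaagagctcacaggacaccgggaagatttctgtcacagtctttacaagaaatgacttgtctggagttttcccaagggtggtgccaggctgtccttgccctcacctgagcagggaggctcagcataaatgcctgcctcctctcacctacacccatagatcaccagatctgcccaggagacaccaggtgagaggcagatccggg
Saa3 promoter, chr7:46715627-46715926: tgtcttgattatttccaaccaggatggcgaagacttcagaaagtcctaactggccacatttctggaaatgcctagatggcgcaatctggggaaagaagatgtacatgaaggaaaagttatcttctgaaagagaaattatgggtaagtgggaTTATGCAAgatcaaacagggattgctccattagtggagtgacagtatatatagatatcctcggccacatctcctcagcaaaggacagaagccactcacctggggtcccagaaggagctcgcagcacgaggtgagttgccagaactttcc

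Most plasma proteins outside the acute phase list were not called. Of 21 hepatocyte secreted proteins, 2 were higher and 3 lower (23.8% called, against 37.1% over all rows). The counts were 9 and 0 with library totals and 5 and 2 without mimic replicates 1 and 4. Trf, the iron carrier transferrin, was 4064, 3336, 3552 and 3802 in PBS and 14597, 7391, 7083 and 11377 in mimic, a difference of 1.39 (adjusted p = 0.001). Ahsg, or fetuin A, rose by 0.47. Albumin (Alb) differed by -0.53 (adjusted p = 0.082) and transthyretin (Ttr) by 0.00. The 3 that were lower, the retinol carrier Rbp4, the apolipoprotein gene Apoa2 and the paraoxonase Pon1, had differences of -0.51, -0.49 and -0.43, and of 0.10, 0.12 and 0.18 with library totals.

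Called complement and coagulation genes were mostly higher. Of 31 complement genes, 14 were higher and 4 lower. C3, the central component, rose from 2636 ± 115 to 6878 ± 1304 (SD, n = 4 and 4), a difference of 1.37, and factor B (Cfb) and C4b rose by 1.01 and 0.74. The receptors of the fragments C5a and C3a, C5ar1 and C3ar1, which myeloid cells carry, rose by 1.48 and 1.71. Of the lower members, Cfd, or adipsin, was 38.5, 14.5, 32.3 and 8.07 in PBS and 0.112, 0.393, 0.188 and 4.13 in mimic and 54.7, 115 and 0.718 in scramble replicates 1 to 3. Its difference of -3.56 ± 1.08 stood beside a wide spread in every group. Among 33 genes of coagulation and fibrinolysis, 17 were higher and 2 lower. Those that rose included the plasminogen activators Plau (1.07) and Plat (0.88), the urokinase receptor Plaur (1.44), and the inhibitors of fibrinolysis Serpinf2 (0.93) and Cpb2 (1.18). Iron and metal genes had 17 of 34 higher and 4 lower, among them, besides Lcn2, Hpx and Trf, the zinc importer Slc39a4 at 1.35. Hamp, which encodes the iron hormone hepcidin and was named after its values were seen, was 40.8, 139, 70.7 and 55.3 in PBS and 450.3, 343, 298 and 235 in mimic, with 210.1, 98.7 and 61.5 in scramble replicates 1 to 3.

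Interferon response genes, the antiviral genes switched on through interferon receptors and IRF proteins, were higher as a group. Of 55 measured, 38 were called higher and 1 lower, with a median of 0.93 (1.46 with library totals). The lower one, Herc6, a ligase relative named for its direction, was at -0.26 but at 0.34 with library totals. Irf7 (chr7:141262706-141266481), the transcription factor that amplifies type I interferon production, was 19.7, 25.4, 18.9 and 15.4 in PBS and 131, 99.5, 84.4 and 97.1 in mimic, a difference of 2.32 ± 0.15 (adjusted p = 3.5e-06). All mimic values were above all PBS values. The oligoadenylate synthetases, which activate RNase L upon double-stranded RNA, rose by 2.49 (Oas1a), 2.30 (Oas1g) and 1.40 (Oas3); Oas1a and Oas1g are close copies. Mx1, a GTPase that blocks viral replication, rose by 1.58, and Ifit2, which binds viral RNA, by 1.22.

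Libraries within each group differed in this response. Isg15, a ubiquitin-like protein gene named here after its values were seen, was 2.74, 6.24, 2.61 and 2.1 in PBS and 56.0, 10.6, 12.3 and 27.8 in mimic (difference 2.43, adjusted p = 0.0017). The interferon-gamma-induced GTPase gene Igtp was 12.8, 49.1, 14.9 and 14.3 in PBS and 46.5, 19.9, 21.8 and 39.0 in mimic. In this gene, also named after its values were seen, PBS replicate 2 reached the level of mimic replicates 1 and 4, and it was not called (adjusted p = 0.26). Without PBS replicate 2, 50 of the 55 were called higher, and without it and mimic replicates 1 and 4, 46 were. Without mimic replicates 1 and 4 alone, 32 were.

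Sensors of foreign nucleic acid and MHC class I genes were called higher in most cases, and MHC class II genes in few. Of 21 sensors and adaptors, 12 were higher and 0 lower. These included the cytosolic RNA helicases Ifih1 (MDA5, 0.78), Ddx58 (RIG-I, 0.79) and Dhx58 (LGP2, 1.23), the kinase Ikbke (1.09), and the endosomal receptors of RNA Tlr3 (0.54), Tlr7 (1.01) and Tlr8 (0.59). Tlr13, the receptor of bacterial ribosomal RNA in mice, was 0.769, 0.763, 0.594 and 0.484 in PBS and 4.59, 6.49, 6.09 and 4.65 in mimic, a difference of 1.96. The adaptors Mavs (-0.13), Myd88 (0.22) and Ticam1 (0.16) were not called. For MHC class I, 15 of 22 genes were higher and 0 lower, among them the immunoproteasome subunit Psmb8 (1.29) and the peptide-loading chaperone Tapbp (1.10). MHC class II genes were called higher for 2 of 10, close to the share over all rows. They were the proteases Ctss (1.68) and Lgmn (1.26) that process antigen in lysosomes, while the class II chains H2-Aa, H2-Ab1 and H2-Eb1 had differences of 0.04, -0.02 and 0.00. PBS replicate 2 carried weight here too: without it 6 class II genes were called higher, and without it and mimic replicates 1 and 4, 10 of 10.

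Promoters of the interferon list held the interferon-stimulated response element. The motif (GAAA, any 2 bases, GAAA), searched on both strands of the same windows, was found in 22 of 43 promoters of the list (51.2%) and in 3.94% of the 9449 rows with a window. It was present in 15 of the 30 promoters of called members, close to the share in the whole list. The Isg15 promoter (RefSeq, GRCm38.p6, chr4:156200769-156201068, minus strand) is shown because 3 overlapping matches run through it, in capitals.
Isg15 promoter: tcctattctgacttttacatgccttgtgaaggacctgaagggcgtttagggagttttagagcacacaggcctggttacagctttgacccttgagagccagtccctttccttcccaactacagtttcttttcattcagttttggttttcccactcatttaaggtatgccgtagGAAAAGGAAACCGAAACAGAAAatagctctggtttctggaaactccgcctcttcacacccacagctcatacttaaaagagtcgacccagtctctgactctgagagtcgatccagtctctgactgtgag

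Macrophage genes moved in both directions. In bulk liver RNA, a change in the number of cells of a type and a change in RNA per cell cannot be told apart. Genes known from Kupffer cells were lower for 9 of 19 measured and higher for 1, with a median of -0.35 (-0.04 with library totals). Clec4f (chr6:83644542-83656187), a lectin specific to Kupffer cells, was 43.9, 40.4, 37.9 and 24.9 in PBS and 2.02, 8.37, 5.54 and 2.93 in mimic, a difference of -2.83 ± 0.33 (adjusted p = 1.2e-04). Timd4, a receptor for dying cells on long-lived Kupffer cells, was 4.45, 4.11, 4.30 and 2.19 and 0.0800, 0.409, 0.120 and 0.0114. Both fell in every mimic library below the lowest PBS library. Vsig4, a complement receptor, Cd163, the receptor of haemoglobin with haptoglobin, and Folr2, a folate receptor, fell by 1.92, 1.94 and 0.98, and Fcna, or ficolin A, a lectin of the same cells, by 1.73. These 6 genes were lower with library totals as well (-0.58 to -2.32). Other genes of the list were not called, among them Cd5l (-0.14), Marco (-0.53) and Siglec1 (0.21). The 7 markers chosen to define the cell type summed to between 69.0 and 135.8 in PBS and between 36.1 and 72.8 in mimic, so that the ranges overlapped. Cd5l held a large part of these sums, at 27.1 to 57.9 in PBS and 28.5 to 52.2 in mimic. Of the 7 markers, 5 were called lower. The 1 member that was higher was the haem oxygenase gene Hmox1 (0.68), which other cells also express.

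Genes of monocytes and of lipid-associated macrophages, the macrophages that take up lipid in fatty tissue, were higher. Of 40 measured, 30 were called higher and 1, Plin2, lower, with a median of 1.22 (1.72 with library totals). Gpnmb (chr6:49036546-49070929), a glycoprotein of lipid-laden macrophages, was 0.121, 0.838, 0.0445 and 0.0807 in PBS and 29.3, 48.1, 45.3 and 36.6 in mimic, a difference of 5.02 ± 0.19 (adjusted p = 5.7e-08). Trem2, the lipid receptor of such cells, was 0.302, 0.279, 0.267 and 0.178 and 2.98, 6.72, 4.94 and 4.15. Mimic replicates 2 and 3 were highest in both, and the same 2 libraries had the lower Saa1 values. Lgals3 (galectin 3) rose by 3.1, the chitinase-like gene Chil3 by 2.77, the elastase gene Mmp12 by 3.15, the actin-capping gene Capg by 2.25, and the integrins Itgax and Itgam by 2.26 and 1.73. Ccr2, the chemokine receptor of blood monocytes, rose by 2.01. Not every general macrophage gene followed. Cd68 rose by 1.87, whereas Adgre1, which encodes F4/80, was at 0.01, and Csf1r, the receptor of the growth factor of macrophages, named after its values were seen, at 0.10, neither of them called. The 10 defining markers summed to between 22.9 and 62.9 in PBS and between 154.7 and 232.9 in mimic, and 9 of the 10 were called higher. Gpnmb, Chil3 and Mmp12 were below 1 in every PBS and scramble library, and Trem2 was below 1 in every PBS library. Given the filter named above, the direction of such genes carries little weight, and they add to the counts of higher members. The count was 30 higher and 1 lower without mimic replicates 1 and 4, too. Plin2, a coat protein of lipid droplets in all cells, fell by 0.54 but stood at 0.07 with library totals.

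Of 22 neutrophil genes listed, 10 had a row in the data used here, and of these 8 were higher and 1 lower. Members low in all libraries would have been removed by the filter named above, so this count carries little weight. The 8 included Lcn2, described above with the acute phase genes, and the others had low values, with mimic means of at most 8.77, that of S100a9. S100a9, a subunit of calprotectin, was 0.452, 0.447, 0.638 and 0.355 in PBS and 6.03, 7.42, 13.3 and 8.35 in mimic (difference 2.68), and Slfn4, an interferon-responsive gene of myeloid cells, was 0.226, 0.242, 0.148 and 0.0968 and 5.73, 6.92, 6.58 and 7.11 (difference 2.68). The values did not overlap between groups in either gene. Both were below 1 in every PBS and scramble library, so this separation carries little weight given the filter. Ngp, a granule gene, averaged 0.0158 in PBS and 2.78 in mimic. The 4 defining neutrophil markers measured summed to between 1.58 and 2.62 in PBS and between 15.2 and 32.4 in mimic. The 1 lower gene, the histidine decarboxylase Hdc, fell by 1.91 and is also expressed by mast cells and basophils. Of 27 chemokine genes and receptors listed, 16 had a row, and of these 11 were higher and 1 lower. These shares were 68.8% and 6.25%, against 20.0% and 17.1% over all rows, but the filter bears on this count too. Cxcl9 was at 1.69, Ccl6 at 1.20 and the receptors Ccr1 at 1.46 and Cx3cr1 at 1.43. Both receptors were below 1 in every PBS and scramble library, so their direction carries little weight. The pan-leucocyte gene Ptprc, which encodes CD45, rose by 1.02. None of 5 erythrocyte genes was called. Lysosomal genes, abundant in macrophages but shared by all cells, were higher for 25 of 45 and lower for 3, with Cd63 at 1.85, Cd68 at 1.87, the cathepsin Ctsb at 0.84 and the activator protein Psap at 0.98.

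**Figure D4:**
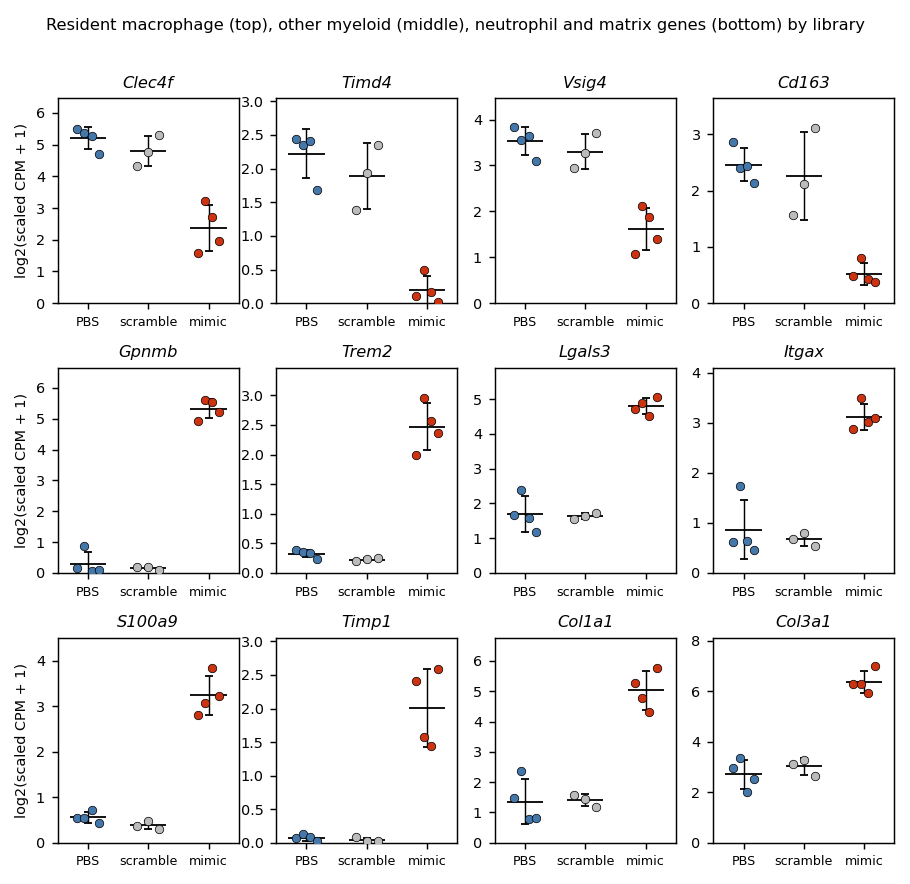
log2(scaled CPM + 1) by library for 4 resident macrophage genes (top), 4 other myeloid genes (middle) and a neutrophil and 3 matrix genes (bottom) in 4 PBS, 3 scramble and 4 mimic libraries; each panel has its own vertical axis from 0, horizontal bars are group means and whiskers the SD. In all 12 panels the mimic libraries lie apart from the PBS and scramble libraries, below them in the top row and above them elsewhere. Gpnmb and S100a9 were below 1 in every PBS and scramble library, so the filter fixes their direction. Trem2 and Timp1 were below 1 in every PBS library, and the filter may bear on them too.

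Extracellular matrix genes were higher. Of 34 collagens and other matrix genes, 26 were called higher and 0 lower, with a median of 0.94 (1.45 with library totals). Col1a1 (chr11:94936224-94953042), a chain of the main fibrillar collagen of scars, was 1.78, 4.19, 0.712 and 0.758 in PBS and 37.8, 26.3, 18.7 and 53.8 in mimic, and Col3a1 was 6.82, 9.18, 2.98 and 4.76 and 77.6, 77.7, 59.8 and 126. Each differed by 3.67, with SE of 0.36 and 0.29, and no values overlapped. The basement membrane collagen Col4a2 rose by 1.74, the fibrillar Col1a2 and Col5a2 by 3.09 and 2.0, the microfibrillar Col6a3 by 1.83, and Sparc, a collagen-binding protein, by 2.05. Proteases and their inhibitors were higher for 13 of 18 and lower for 2. Timp1, the inhibitor of metalloproteinases that marks fibrosis, was 0.0452, 0.0931, 0.0594 and 0.0161 in PBS and 4.32, 1.98, 1.71 and 5.04 in mimic. At such low PBS values the filter may bear on its direction. Mmp14 and Mmp2, which act on collagen, rose by 0.96 and 0.82, while Timp3 and the protease nexin gene Serpine2 fell by 0.71 and 1.22.

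Cells that make and line the matrix gave a mixed picture. Hepatic stellate cells, which store retinoids and turn into matrix-producing myofibroblasts, had 9 of 23 genes higher and 4 lower. Those that rose included the growth factor receptor Pdgfrb (1.11), the transforming growth factor gene Tgfb1 (0.96) and smooth muscle actin Acta2 (0.97), which was 0.271, 0.298, 0.668 and 0.274 in PBS and 3.26, 1.18, 0.735 and 2.22 in mimic. Genes of the quiescent state were lower or not called: Reln fell by 0.62, the lectin gene Colec10 by 1.52 and Ecm1, which restrains latent transforming growth factor, by 1.03, while Lrat, the enzyme of retinoid storage, was at -0.23 (adjusted p = 0.22). The 5 defining stellate markers summed to between 23.6 and 35.4 in PBS and between 23.4 and 36.2 in mimic. Sinusoidal endothelial genes had 2 of 31 higher and 10 lower, with a median of -0.09 that stood at 0.39 with library totals, where 0 were called lower. The lower count was 3 without mimic replicates 1 and 4. Ehd3 fell by 1.0, the phosphatase gene Ptprb by 0.84 and the mannose receptor gene Mrc1 by 0.69, against a rise of Cd93, also a myeloid gene, from 1.72, 1.34, 1.8 and 1.74 to 13.3, 13.2, 10.6 and 11.8. Of 20 bile duct and keratin genes listed, 9 had a row in the data used here, and of these 7 were higher and 1 lower. Members low in PBS and scramble, such as Sox9, would have a row only through mimic, so this count carries little weight. Spp1 (osteopontin) rose by 1.29 and the progenitor factor Sox9 by 0.47, whereas the keratin gene Krt23 fell from 8.91, 9.48, 4.53 and 5.87 to 0.144, 0.257, 0.239 and 0.194, by 2.71 (adjusted p = 4.6e-06). The other 3 defining bile duct markers had no row in the data used here.

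Most genes of fatty acid breakdown were called lower as scaled by the authors. PPARA is the nuclear receptor that senses fatty acids, and of 57 oxidation enzymes and PPARA-driven genes, 42 were called lower and 1 higher, with a median of -0.54 that stood at 0.06 with library totals, against 0.51 over all rows. With library totals 12 were still called lower and 3 higher, and with totals that left out the Mup rows 30 and 2. Acot1 had the widest difference of the list. Acot1 (chr12:84009490-84018371), a cytosolic thioesterase that cuts acyl-CoA, was 86.5, 55.5, 52.8 and 57.9 in PBS and 5.98, 2.74, 2.92 and 8.35 in mimic, a difference of -3.50 ± 0.27 (adjusted p = 9.3e-06; -2.94 with library totals). Cyp4a14 (chr4:115486200-115496142), a fatty acid omega-hydroxylase, was 1135, 941, 656 and 526 and 107, 69.0, 173 and 210.5 (difference -2.59), and the transcript row AK135671, which has no gene name in the table, was 1165, 963, 669 and 535 and 112, 71.2, 178 and 215 (difference -2.58). These values follow those of Cyp4a14 in every library, so that both rows may hold the same reads. No values of Acot1 or Cyp4a14 overlapped between the groups. Acot2, the mitochondrial thioesterase, Aldh3a2, a fatty aldehyde dehydrogenase, and Acaa1b, a peroxisomal thiolase, fell by 1.92, 1.45 and 1.18. Fabp1, the fatty acid carrier of hepatocytes, named after its values were seen, was 1666, 1719, 1712 and 1750.2 in PBS and 791, 418, 699 and 803 in mimic. Its promoter held the only match of 40 in this list to a pair of PPAR half-sites (AGGNCA, any base, AGGNCA; both strands), which was found in 0.41% of rows with a window. Among mitochondrial enzymes, the isomerase Eci1 fell by 0.77, and Cpt1a, the gate of mitochondrial entry, chosen likewise, was at -0.34 (adjusted p = 0.22). The receptor gene Ppara itself was 225, 198, 194 and 201 in PBS and 119.8, 189, 163 and 129 in mimic, a difference of -0.46 that stood at 0.14 with library totals. Counts of lower members were 36 without mimic replicates 1 and 4 and 35 when PBS replicate 2 was left out as well.

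**Figure D5:**
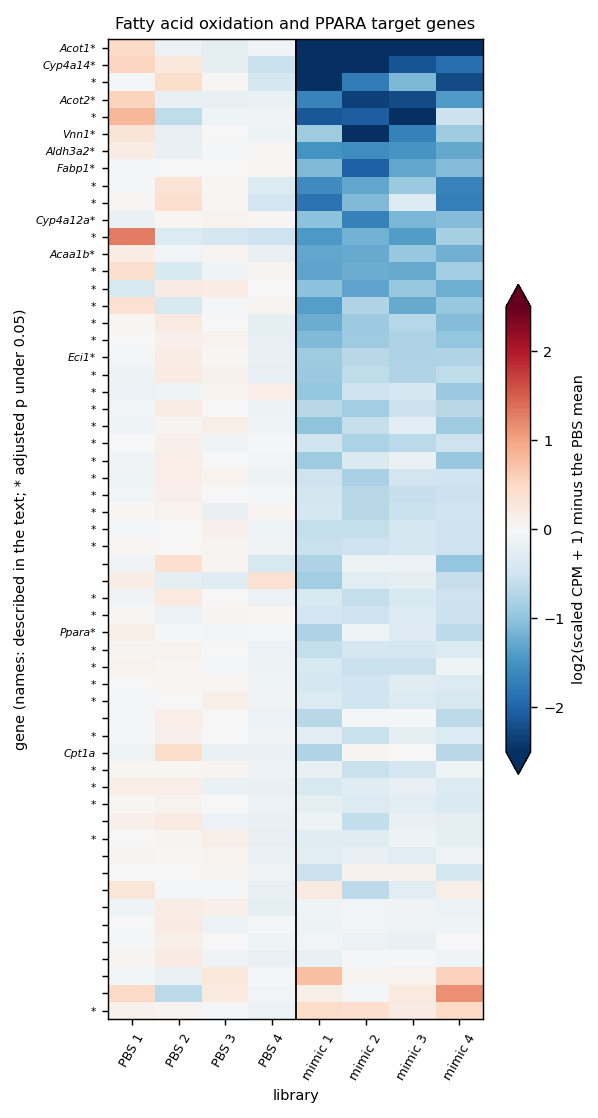
Heat map of 57 fatty acid oxidation and PPARA target genes (rows, sorted by difference, stars for adjusted p under 0.05 by limma) in 4 PBS and 4 mimic libraries (columns); colour is log2(scaled CPM + 1) minus the PBS mean of the gene, cut at 2.5 in either direction. Acot1 and Cyp4a14 at the top are deep blue in the 4 mimic libraries, and 42 genes are called lower; names are shown for the genes described in the text.

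Nuclear genes of the respiratory chain were lower for 21 of 76 and higher for 2, with a median of -0.14 that stood at 0.44 with library totals, where 0 were called lower. The count of lower members was 6 without mimic replicates 1 and 4.

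Drug and steroid metabolism genes of hepatocytes held more lower than higher calls as scaled by the authors, and more higher than lower calls with library totals. Of 46 cytochrome P450 and related oxidases, 18 were called lower and 0 higher, with a median of -0.35 that stood at 0.23 with library totals. With library totals 7 were higher and 3 lower. Cyp3a11 (chr5:145854426-145879964), the main drug-oxidizing P450 of mouse liver, was 1567, 832, 1021 and 1016 in PBS and 119, 223, 188 and 247 in mimic, a difference of -2.52 ± 0.24 (adjusted p = 3.5e-05). Its relatives Cyp3a41b and Cyp3a44 fell by 2.09 and 1.8, with the caution that reads of such copies can be shared. The nuclear receptors of foreign compounds that drive these genes, Nr1i2 (PXR) and Nr1i3 (CAR), had differences of -0.45 and -0.72, and of 0.15 and -0.12 with library totals. They were 2 of 8 hepatocyte transcription factors called lower of 28, with 0 higher and a median of -0.19 (0.39 with library totals). With library totals 7 of these factors were higher and 0 lower, and the lower count was 5 without mimic replicates 1 and 4. Hnf4a, at -0.31, and Cebpa, at -0.06, were not called. Of 55 conjugating enzymes and carboxylesterases, 24 were lower and 4 higher, and their median of -0.31 stood at 0.29 with library totals. With library totals the counts were 3 lower and 15 higher. Ces2c, a carboxylesterase, was 17.9, 21.0, 31.2 and 26.4 in PBS and 2.40, 8.63, 5.15 and 3.62 in mimic, and the glucuronosyltransferase Ugt2b1 fell by 1.91.

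Genes that growth hormone keeps higher in male liver were lower for 22 of 43 and higher for 1, with a median of -0.99 that remained below 0 with library totals, at -0.44. Hsd3b5, a steroid dehydrogenase, was 71.3, 70.8, 105 and 125 in PBS and 31.9, 27.8, 24.6 and 14.3 in mimic, and Elovl3, a fatty acid elongase, and Cyp4a12a fell by 1.70 and 1.24. The Mup rows belong to this list and share reads with each other, so that their changes are not independent. Mup3, named after its values were seen, was 4228, 4417, 5049 and 4370.0 in PBS and 2064, 1939, 2504 and 1509 in mimic without overlap, while Mup20 (darcin), named likewise, was 3308, 5329.7, 4169 and 3798 and 1257, 3448, 4291 and 1288 and was not called (adjusted p = 0.085). Mimic replicates 1 and 4 were low in Mup20, as in the share of all Mup rows, and mimic replicates 2 and 3 lay within the PBS range. Without these 2 libraries 12 members were called lower. Female-biased genes were higher for 7 of 21 and lower for 6. Among those that rose were the steroid hydroxylase Cyp17a1 at 1.39 and the neurotrophin receptor Ntrk2 at 1.46. The lowest member was Cyp3a41b, named above with Cyp3a11, at -2.09. Of the growth hormone axis, 1 of 23 genes was higher and 6 lower, among them the receptor Ghr (-0.43, or 0.18 with library totals), while Igf1 (-0.11) was not called. Counts of the axis were 5 higher and 0 lower with library totals, and 1 and 2 without mimic replicates 1 and 4.

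Bile acid genes were called lower for 6 of 31 (19.4%, against 17.1% over all rows) and higher for 2, with a median of -0.12. With library totals 1 was lower and 10 were higher, with a median of 0.42. Slco1a1 (chr6:141907282-141946962), an uptake transporter of organic anions, was 199.9, 167, 249.996 and 301 in PBS and 53.5, 41.9, 52.3 and 34.8 in mimic, a difference of -2.29 ± 0.18. Abcb4, the phospholipid exporter of bile, fell by 0.93, and Akr1d1, the reductase of bile acid synthesis, rose by 0.82. The rate-limiting enzyme Cyp7a1, named after its values were seen, was 47.1, 73.5, 101 and 72.1 in PBS and 64.5, 153, 93.7 and 96.2 in mimic (adjusted p = 0.21).

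Lipoprotein genes, the setting in which Mttp acts, held called members of both directions as scaled by the authors. Of 36 measured, 8 were higher and 11 lower, with a median of 0.02. With library totals 19 were higher and 1 lower (median 0.62), and without mimic replicates 1 and 4 the counts were 8 and 7. Besides Mttp, Sec23a, a coat protein of the vesicles that carry cargo from the endoplasmic reticulum, was 40.3, 43.6, 44.1 and 39.7 in PBS and 17.5, 21.5, 23.2 and 22.7 in mimic (difference -0.95, or -0.36 with library totals). Aadac, a lipase of the endoplasmic reticulum, fell by 0.72. Apob, named after its values were seen, was 3185, 2881, 3283 and 3900.0 in PBS and 2416, 2337, 2459 and 2251 in mimic, a difference of -0.48 (adjusted p = 0.029) that stood at 0.13 with library totals. On the higher side were Tm6sf2, which promotes lipidation of lipoproteins, at 1.17, Apof at 1.03 and the sterol exporter Abcg1 at 0.93. Tm6sf2 was 5.87, 4.15, 4.76 and 4.03 in PBS and 13.1, 11.2, 10.3 and 12.6 in mimic, with no overlap.

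Cholesterol synthesis genes were higher for 13 of 28 and lower for 3, with a median of 0.33. These counts became 8 and 1 without mimic replicates 1 and 4. Dhcr7, the reductase of the last step, was 4.37, 5.86, 4.67 and 4.20 in PBS and 14.1, 14.7, 12.6 and 15.4 in mimic, a difference of 1.40 ± 0.10 (adjusted p = 4.6e-06). The kinase Mvk, the isomerase Idi1, the demethylase subunit Msmo1 and the prenyl synthase Fdps rose by 1.07, 1.05, 1.21 and 1.30, and Srebf2, the transcription factor of the pathway, by 0.67. Fdps was 1.73, 2.20, 1.8 and 2.89 in PBS and 9.26, 3.83, 3.61 and 14.1 in mimic, so that mimic replicates 1 and 4 were above the other mimic libraries.

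Fatty acid synthesis and storage genes held called members of both directions. In the synthesis list, 3 of 22 were higher and 7 lower, with a median of 0.03. With library totals 14 were higher and 1 lower, with a median of 0.62. The elongase Elovl6 was 38.4, 51.5, 42.6 and 56.3 in PBS and 13, 18.1, 19.3 and 13.2 in mimic (difference -1.52; -0.93 with library totals), and malic enzyme Me1 fell by 1.0. Fasn, the fatty acid synthase, rose by 0.61. The synthesis genes Acaca (0.04), Acly (0.23) and the regulator Srebf1 (0.16) were not called. Of 29 genes of triglyceride synthesis and lipid droplets, 4 were higher and 11 lower, with a median of -0.25 that stood at 0.31 with library totals. Counts of this list were 10 and 1 with library totals and 3 and 5 without mimic replicates 1 and 4. Mgll, which cleaves monoglycerides, was 118, 122, 104 and 117 in PBS and 47.3, 44.9, 53.4 and 59.9 in mimic (difference -1.16). Cidec, which fuses lipid droplets, fell by 1.77, the phosphatase Lpin1 by 1.02 and the droplet coat gene Plin4 by 1.35, whereas Lpl, the lipase of macrophages and other cells outside the healthy hepatocyte, rose by 0.79. The acyltransferases Dgat1 (-0.25) and Dgat2 (0.15) were not called.

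Glucose and clock genes were lower in part. Of 51 genes that handle glucose or relay the insulin signal, 17 were lower and 5 higher, with a median of -0.14 that stood at 0.47 with library totals. The liver glycogen synthase Gys2 fell by 1.06 and Ugp2, which makes its substrate, by 0.73, while Pkm, a pyruvate kinase that hepatocytes make little of, rose by 1.65. Without mimic replicates 1 and 4, 6 were lower and 6 higher. With library totals 0 were lower and 18 higher. Among 25 circadian clock genes 8 were lower and 0 higher, with a median of -0.29 and 0.31 with library totals. Cry1, a repressor of the clock, fell by 0.79 and Nfil3 by 0.85, and the count was 3 without mimic replicates 1 and 4. With library totals 0 clock genes were lower and 6 higher. Hour of collection is not given in the sources used here.

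Genes of growth and translation included more that were higher than lower. Of 44 genes of the cell cycle and the p53 response listed, 36 had a row, and of these 17 were higher and 3 lower. The counts were 9 and 1 without mimic replicates 1 and 4. The helicase subunits Mcm5 and Mcm6, which open DNA for replication, rose by 0.89 and 1.02, and the topoisomerase gene Top2a by 0.69, at mimic means of 1.5, 3.11 and 1.30. Genes as low as Mcm5 and Top2a may have a row only through mimic, so their direction carries little weight. Cdkn1a, the cell cycle inhibitor p21, named after its values were seen, was 0.965, 1.25, 0.430 and 0.484 in PBS and 8.54, 2.86, 1.8 and 5.33 in mimic. Cytosolic ribosomal proteins were higher for 41 of 80 and lower for 0, and the median was 0.27. Among them Rps10, at 0.50, and Rplp0, at 0.49, rose. The count of ribosomal genes fell to 8 without mimic replicates 1 and 4.

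Stress and nitrogen pathways had called members in both directions. The share called was 44.4% for NRF2 and antioxidant genes, against 37.1% over all rows. It was below the share over all rows for endoplasmic reticulum stress and the amino acid response (17.9%) and for urea cycle and amino acid breakdown (25.4%). Of 27 NRF2 and antioxidant genes, 8 were higher and 4 lower, with the glutathione transferase Gstm3 at 1.21 and the quinone reductase Nqo1 at 0.77. Without PBS replicate 2 the counts were 9 and 7, and with library totals 17 and 0. Of 39 genes of endoplasmic reticulum stress and the amino acid response, 3 were higher and 4 lower, and the chaperone gene Hspa5, named after its values were seen, was at 0.01. Counts of this list were 2 higher and 12 lower without mimic replicates 1 and 4, and 2 and 19 when PBS replicate 2 was left out as well. With library totals 16 were higher and 0 lower. Asns, asparagine synthetase, was 0.121, 0.633, 0.608 and 0.129 in PBS and 0.656, 6.24, 5.15 and 0.912 in mimic, with mimic replicates 2 and 3 far above the rest. Genes of the urea cycle and of amino acid breakdown were higher for 8 of 63 and lower for 8. Without mimic replicates 1 and 4, 11 were higher and 2 lower, without PBS replicate 2 as well 19 and 3, and with library totals 31 and 0. Bhmt, the betaine methyltransferase, was 483, 1333, 877 and 438 in PBS and 2049, 1502, 1461 and 2105 in mimic, with PBS replicate 2 close to the mimic range.

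A few genes with small p-values belong to none of the lists. Emp1, an epithelial membrane protein gene, was 0.467, 0.949, 0.341 and 0.436 in PBS and 6.38, 5.25, 4.98 and 7.03 in mimic (difference 2.16). Hhip, the inhibitor of hedgehog ligands, was 1.06, 1.25, 0.920 and 1.47 and 0.144, 0.0454, 0.137 and 0.103 (difference -0.97). Vwa8, a mitochondrial ATPase gene, and Dennd4a, an activator of Rab proteins, fell by 0.91 and 0.68, each with no overlap between groups; their differences with library totals were -0.31 and -0.11.

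The scramble libraries are set beside these values; the comparisons of mimic with scramble and with PBS use the same mimic libraries and are not independent. Saa1 was 18.4, 17.8 and 19.5 in scramble replicates 1 to 3, Gpnmb 0.133, 0.132 and 0.0780, Irf7 21.0, 17.7 and 20.5, Col1a1 1.99, 1.74 and 1.28, Acot1 56.3, 49.0 and 59.2 and Mttp 119, 117 and 130.3. For these 6 genes no scramble library reached the mimic range. Of acute phase genes 24 were higher in mimic than in scramble and 28 in mimic than in PBS, of interferon genes 39 and 38, of matrix genes 23 and 26, and of monocyte and lipid-associated macrophage genes 31 and 30. Of oxidation genes 38 were lower than in scramble and 42 lower than in PBS. Scramble against PBS had no called member in any list by limma. Kupffer cell genes varied among scramble libraries, with Clec4f at 19.2, 26.2 and 38.3 and Cd163 at 1.97, 3.33 and 7.61, all above the mimic values.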

How the data were processed

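RNA of whole liver was measured by stranded mRNA sequencing with paired reads of 48 bases. The authors' tools, per the submitters' processing notes, included Bowtie, edgeR 3.8.6 in R 3.1.2, and bedtools 2.17.0, besides SAMtools 0.1.19, FastQC 0.11.3 and bcl2fastq 1.8.4, with the mm10 build; the role of each is not given in the sources used here. The deposited table holds a signal, scaled CPM per gene and library, of which 100% were whole multiples of a library's step (tolerance 1e-06). The planned design assumed CPM, and the same test was used. The test was limma's (version 3.58.1, R 4.3.3) on log2(value + 1), fitted with a trended prior to 3 group means over 11 libraries, and p-values were adjusted by Benjamini-Hochberg over all 13636 rows; the fit was checked on simulated data. No further row was filtered out here, and 54 rows hold identical values in 24 sets. The name of the deposited data, CPM1in3, points to an earlier filter of 1 CPM in 3 libraries. Genes low in all libraries would then be absent, and genes low in PBS and scramble would be kept only where mimic was high. The text names the called rows with the smallest p and the largest non-overlapping changes, Mttp, up to 6 called members with the smallest p per list (any member of lists of up to 30), and defining markers. Genes outside this rule are marked where named. The lists were written from general knowledge, and comparison, members and lists were chosen with earlier results of these data known. GENCODE M21 (GRCm38) gave positions and 3′ UTRs; of the rows, 11456 matched a 3′ UTR by symbol, 381 by an older symbol, and 1799 had none. Promoters and microRNAs came from RefSeq tables (GRCm38.p6), and 9449 rows had a promoter.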

Additional observations from a re-analysis of the deposited data

Results flagged for a closer look

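In each group of 4 libraries, the highest or lowest library was compared with the nearest other one, and its gap was set against the whole range of the group. A library is given here where this ratio was above Dixon's 95% critical value for 4 samples. Chance flags about 1 in 20 groups, and 434 groups were looked at, so that most single entries carry little weight.

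PBS replicate 2 was the library most often apart. It was high for Ccr2 at 1.79 (others 0.475 to 0.516), Cpt1a at 408 (others 269 to 283), Cxcl9 at 22.2 (others 3.26 to 3.97), Dhx58 at 7.89 (others 5.39 to 5.46), Gpnmb at 0.838 (others 0.0445 to 0.121) and H2-Aa at 54.1 (others 8.23 to 15.2). It was also high for H2-Ab1 at 52.1 (others 8.23 to 14.0), H2-Eb1 at 149 (others 22.1 to 39.5), Igtp at 49.1 (others 12.8 to 14.9), Isg15 at 6.24 (others 2.1 to 2.74), Itgax at 2.33 (others 0.371 to 0.549), Psmb8 at 20.0 (others 7.62 to 9.06) and Saa1 at 116 (others 26.3 to 33.7). It was low for Aadac at 136 (others 159 to 163) and Cd93 at 1.34 (others 1.72 to 1.8). Interferon, class II and myeloid genes were among those in which it was high.

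PBS replicate 1 was high for Acot1 at 86.5 (others 52.8 to 57.9) and Acot2 at 23.8 (others 13.5 to 14.1). PBS replicate 1 was low for Socs3 at 14.6 (others 20.7 to 21.7). PBS replicate 3 was high for Acta2 at 0.668 (others 0.271 to 0.298) and Col4a2 at 6.31 (others 5.08 to 5.27). PBS replicate 3 was low for Oas3 at 0.312 (others 0.724 to 0.758). PBS replicate 4 was high for Ppp3ca at 23.2 (others 22.3 to 22.3). PBS replicate 4 was low for Timd4 at 2.19 (others 4.11 to 4.45) and Tlr7 at 0.371 (others 0.727 to 0.763). Mimic replicate 1 was high for Psmb8 at 34.1 (others 24.4 to 25.0). Mimic replicate 1 was low for Cyp3a41b at 2.21 (others 3.09 to 3.20), Ppp3ca at 12.6 (others 15.2 to 15.3) and Reln at 6.78 (others 14.2 to 15.0). Mimic replicate 2 was high for Ago2 at 4.13 (others 2.35 to 2.60) and Mavs at 34.2 (others 25.7 to 27.0). Mimic replicate 3 was low for Rplp0 at 92.2 (others 106 to 107). Mimic replicate 4 was high for Cfd at 4.13 (others 0.112 to 0.393), Mmp14 at 20.0 (others 16.5 to 16.8) and Plat at 1.68 (others 0.889 to 1.01).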

How the results depend on the processing

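The 5059 called rows became 3273 when only the 8238 rows with a mean of at least 5 were tested and 2894 without mimic replicates 1 and 4, a choice made after seeing the data. The 2733 higher rows became 1313 with that filter, 6882 with library totals, 4334 with totals that left out the Mup rows (chosen after seeing the data) and 1752 without mimic replicates 1 and 4. The 2326 lower rows became 120, 705 and 1142 under the last 3 of these settings. Leaving out 1 library at a time gave 3758 to 5681 called rows, 2120 to 2994 higher and 1631 to 2687 lower. The higher share of called rows was 54.0%, against 98.3% with library totals, 86.0% with totals without Mup rows and 40.1% with the filter, and the median of all rows moved by 0.51 with library totals and to 0.17 without Mup rows. Mttp, at -0.94, was -0.33 with library totals (adjusted p = 0.23), where it lost its call, and otherwise between -1.04 and -0.75 over the alternatives, -1.01 to -0.86 without 1 library. The seed result, the median of matched minus unmatched rows, was -0.14, and -0.17 for 8-base sites. Length of the 3′ UTR is not held equal in these values. Medians without and with a match were 0.08 and 0.02 in the short class, 0.03 and -0.10 in the middle class and -0.05 and -0.13 in the long class. With library totals Apoa2 was at 0.12, Apob at 0.13, Becn1 at 0.28, Ghr at 0.18, Herc6 at 0.34, Il6st at 0.29, Nr1i2 at 0.15, Plin2 at 0.071, Pon1 at 0.18, Ppara at 0.14, Rbp4 at 0.10 and Tnrc6b at 0.014, each lower in the report. Without mimic replicates 1 and 4, Hspa5 was at -0.44, and without PBS replicate 2 as well at -0.50, H2-Ab1 at 0.83 and Saa4 at -0.25. The causes were not tested. Replicate numbers do not pair the samples: the correlations of deviations were -0.06, 0.01, 0.26 and 0.05, and a replicate block gave 4584 called rows, 2500 higher and 2084 lower, with Mttp at -0.94 (adjusted p = 0.00013). Of 216 named genes besides Mttp, 211 kept direction and call under the block. Quantile normalization moved lower calls from 21 to 10 for the respiratory chain, from 11 to 6 for triglyceride genes, from 7 to 4 for fatty acid synthesis and from 2 to 5 for genes that act with small RNAs, and higher calls from 8 to 4 for interleukin signalling and from 5 to 3 for reported miR-30 targets. Leaving out PBS replicate 4 cost the most calls of named genes, 14, and 4 genes without a call gained one without a single library: Igtp without PBS replicate 2, Mavs without mimic replicate 2, Stat3 without mimic replicate 3 and Mup20 without either of these mimic libraries. The planned edgeR and DESeq2 alternatives were not run, because the low values did not establish whole reads in every library. Precision is limited by 4 libraries a group; rows with few reads cannot show small differences.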
